A study of Mus musculus with 6 samples.

Results

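Surface receptors that bind bacterial products, and the adaptor through which several of them signal, were followed in peritoneal exudate cells across 3 genotypes of NF-IL6. The set was chosen by name: Marco, Msr1, Clec4e, Clec4n, Cd14, Tlr2, Tlr4, Ly96 and Myd88. In the annotation of the array, 6 of the 12488 probe sets carried the symbol of 5 of these 9 genes, Marco, Msr1 (2 probe sets), Clec4e, Cd14 and Myd88. Clec4n, Tlr2, Tlr4 and Ly96 were not analysed here. All 5 genes had at least 1 array above the floor of 98.0 signal units, under which a signal was not read as a level, and they are 5 of 6767 named genes with that property.

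Each of the 6 arrays held RNA of 1 group, all labelled C57BL/6. The groups were cells of NF-IL6 knockout mice (KO) stimulated for 12 h with lipopolysaccharide (LPS) and interferon-γ, and left untreated; cells of a knock-in line labelled KI(LAP) (KI), stimulated for 12 h and untreated; and wild-type cells (WT), stimulated for a time that the labels do not give, and untreated. The Cebpb gene encodes NF-IL6, also called C/EBPβ, a transcription factor of the leucine-zipper class whose longer, activating form is known as LAP. The sources used here do not say how the knock-in allele was built, whether an array stands for 1 mouse or a pool, or how the exudate was raised. No group had a replicate, so the spread between animals or cultures is unknown, and precision is limited throughout by having 6 arrays.

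Macrophages recognise bacteria through several receptor families that work side by side. CD14 binds LPS and passes it to the complex of TLR4 with MD-2 (the product of Ly96), and TLR2 recognises bacterial lipoproteins; both signal inside the cell through the adaptor MyD88 to NF-κB. The class A scavenger receptors MARCO and SR-A (the product of Msr1) take up bacteria and other polyanionic particles, and the C-type lectin Mincle (the product of Clec4e) binds glycolipids of mycobacteria and signals through the Fc receptor γ chain and the kinase SYK. LPS and interferon-γ together give classically activated macrophages.

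The arrays had a deposited median signal between 131 and 185, and Cebpb was at 59.0 and 12.7 on the stimulated and untreated KO arrays, both under the floor. On the KI arrays Cebpb was at 5890 and 2284, against 9329 and 5492 on the WT arrays. Of 9 listed macrophage markers 8 were on the array, all above the floor on each of the 6 arrays, with a summed signal of 51823 to 70471 to which Lyz2, Mpeg1 and Cd68 gave the most. Lyz2, the macrophage lysozyme, was at 13501 or more, while Mertk was as low as 269.9 (untreated WT) and Itgam as low as 349 (stimulated KI). Of the T cell markers 5 of the 6 on the array, Cd3e, Cd3d, Cd3g, Cd8a and Thy1, were under the floor on every array, and so were 5 of 6 NK cell markers and 3 of 4 eosinophil markers.

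Marco, Clec4e, Cd14 and Msr1 were all lower in stimulated KO cells than in stimulated WT cells, by 8.03-fold, 9.87-fold, 2.78-fold and 2.39-fold, while Myd88 was 1.04-fold above WT. In stimulated KI cells Marco was 1.102-fold above the WT signal, Cd14 and the brighter of both Msr1 probe sets were close to the KO signals, and Clec4e lay between both. With stimulation, Marco, Clec4e and Myd88 rose over the 3 genotypes as a whole, and Cd14 and Msr1 did not pass the test.

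Marco, the scavenger receptor with a collagen-like stalk that binds bacteria directly, had a signal of 256 in stimulated and 12.1 in untreated KO cells. In KI cells it was at 2266 when stimulated and 21.1 when untreated. In WT cells it was at 2055 when stimulated and 201.5 when untreated. The stimulated KI and WT arrays were thus the high ones, 8.86-fold and 8.03-fold above stimulated KO, and the untreated KO and KI arrays were both under the floor. Stimulated KO cells were 1.27-fold above untreated WT cells in this gene. Among the 6767 named genes the stimulated KO minus WT difference of Marco, -3.01 on the log2 scale, ranked 8th from the lowest, and its stimulated KI minus KO difference of 3.15 ranked 2nd from the highest, behind Cebpb itself. In untreated cells Marco was at least 2.06-fold lower in KO than in WT and at least 2.06-fold lower in KI than in WT, both bounds set by the floor.

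Clec4e, which encodes Mincle, was at 191 in stimulated and 61.9 in untreated KO cells. KI cells gave 484 stimulated and 98.0 untreated, the second of these at the floor. WT cells gave 1886 stimulated and 221 untreated. The stimulated signals thus lay on 3 steps, with KO 9.87-fold and KI 3.90-fold below WT and KI 2.53-fold above KO, and stimulated KO cells did not reach the untreated WT signal. The stimulated KO minus WT difference of -3.30 on the log2 scale ranked 6th from the lowest of 6767 genes, and the KI minus WT difference of -1.96 ranked 21st. In untreated cells Clec4e was at least 2.26-fold lower in KO and 2.26-fold lower in KI than in WT.

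Cd14, the LPS-binding co-receptor, was at 2845 in stimulated and 5258 in untreated KO cells, 2642 and 5109 in the same states of KI cells, and 7915 and 6867 in WT cells. It was higher in stimulated than in untreated WT cells by 1.15-fold, and lower in stimulated than in untreated cells of both other genotypes, by 1.85-fold in KO and 1.93-fold in KI. The stimulated KO and KI arrays were the lowest 2 of the 6, 2.78-fold and 2.996-fold below stimulated WT and within 1.08-fold of each other. Untreated KO and KI cells were 1.31-fold and 1.34-fold below untreated WT cells.

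Msr1, the class A scavenger receptor of modified lipoproteins and bacteria, was read by 2 probe sets. The brighter one, 94792_at, had 484 in stimulated and 1588 in untreated KO cells, 401 and 1138 in KI cells, and 1156 and 1223 in WT cells. Its stimulated KO and KI arrays were the low ones, 2.39-fold and 2.88-fold below stimulated WT, and the untreated arrays lay within 1.40-fold of one another. The dimmer probe set, 94140_at, had 365 and 760 in KO cells, 518 and 708 in KI cells, and 684 and 503 in WT cells. It placed stimulated KO 1.87-fold and stimulated KI 1.32-fold below stimulated WT, both under the 2-fold size used here. The probe sets thus gave the same order of KO and WT but differed in where they placed stimulated KI cells, which on the dimmer one were 1.42-fold above KO.

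Myd88, the adaptor, was at 1458 in stimulated and 889 in untreated KO cells, 1699 and 697 in KI cells, and 1400 and 906 in WT cells. The 3 stimulated arrays all lay above the 3 untreated ones, and among stimulated cells KO and KI were 1.04-fold and 1.21-fold above WT. Of the 5 genes it was the one whose stimulated signals lay closest together across genotypes.

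**Figure D1:**
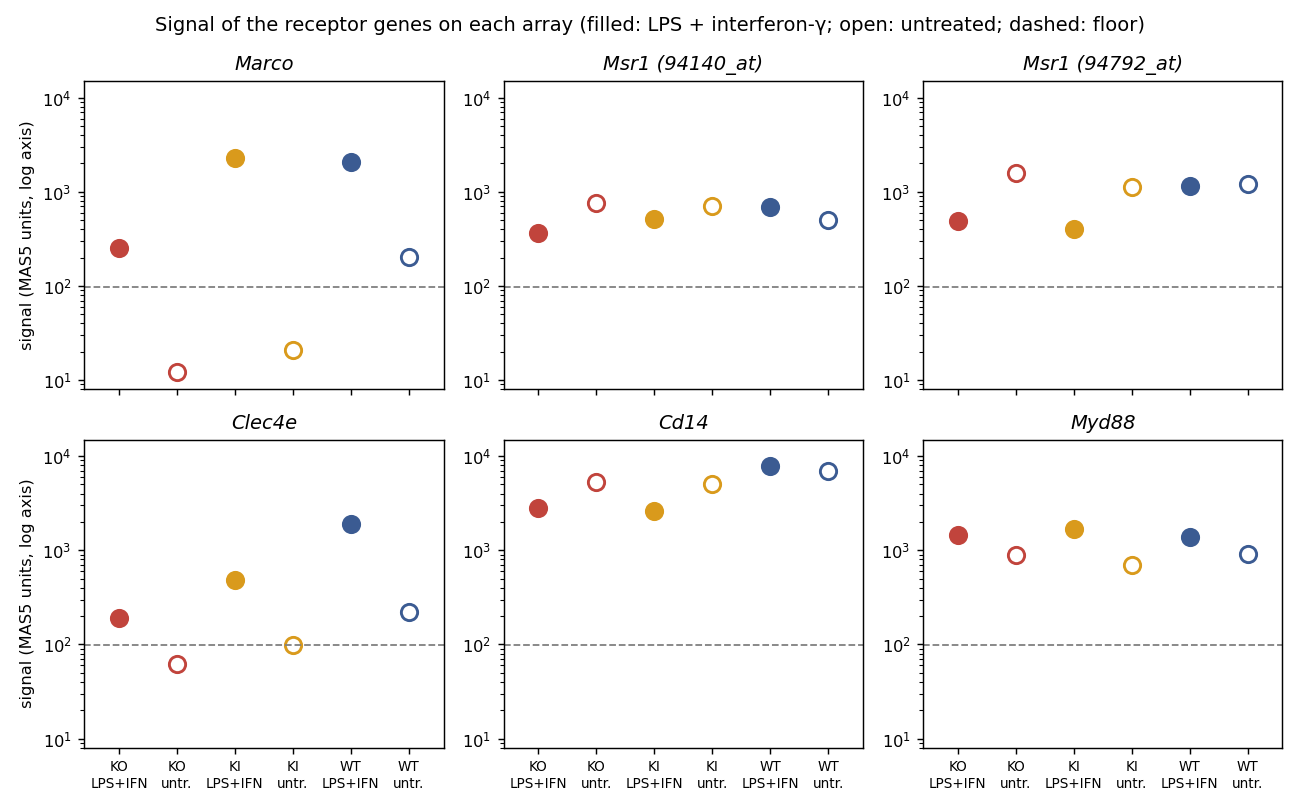
Deposited signal of each probe set (MAS5 units, log axis) on the 6 arrays, 1 point per array, with stimulated cells filled, untreated cells open and the floor of 98.0 dashed. Marco is high in stimulated KI and WT cells (2266 and 2055), Clec4e is stepped from KO through KI to WT, and Cd14 and the brighter Msr1 probe set are lowest in stimulated KO and KI cells.

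**Figure D2:**
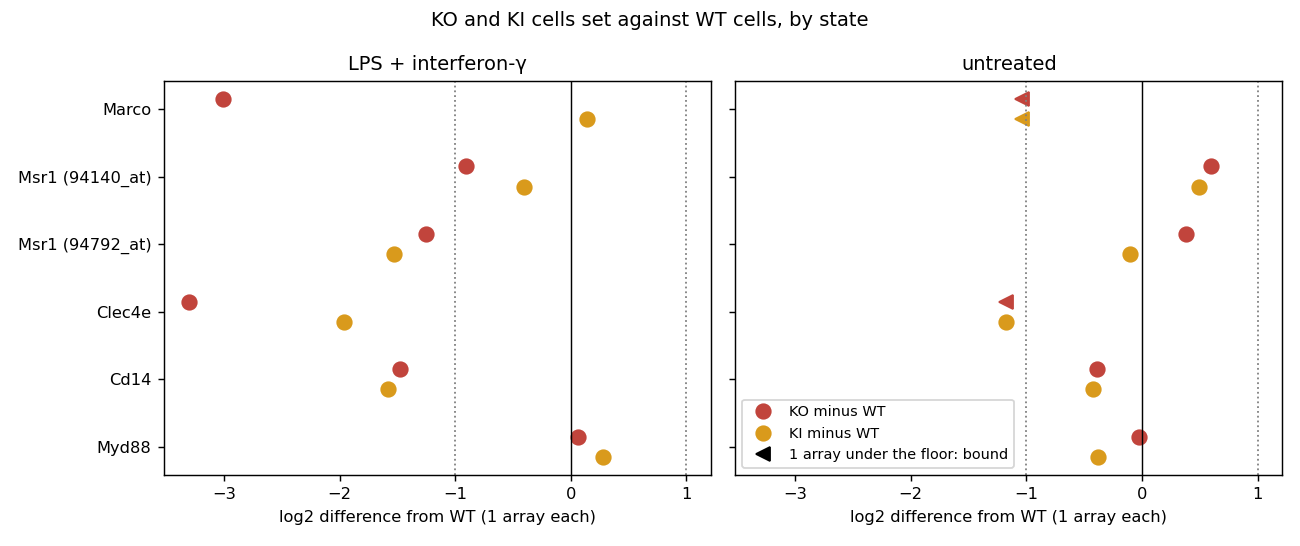
Log2 difference of KO (red) and KI (orange) from WT for each probe set, in stimulated cells (left) and untreated cells (right), each from 1 array per group. Dotted lines mark a difference of 1, and triangles are bounds where KO or KI lay under the floor. In stimulated cells Marco differs from WT in KO (-3.01) and not by that size in KI (0.14), while Cd14 lies at -1.48 and -1.58.

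The comparison of genotypes in stimulated cells was then read against all genes. Of the 5 receptor genes, 4 were at least 1 log2 unit lower in stimulated KO than in stimulated WT cells, as were 3.32% of the 6767 named genes, and 0 were higher by that much, against 2.75% of all. For KI against WT, 3 of 5 were lower, against 4.8% of all genes, and 0 were higher, against 1.92%. Clec4e, Cd14 and Msr1 were lower in both KO and KI, which held for 1.6% of the named genes, and Marco was lower in KO alone by this size, which held for 1.73%. Msr1 enters these counts through its brighter probe set alone, as the other lay at -0.91 in KO and -0.40 in KI. The median difference of the 5 genes was -1.48 for KO minus WT and -1.53 for KI minus WT, beside medians of 0.00 and -0.00476 over all genes. The KI median is the value of Msr1 on its brighter probe set. Both comparisons use the same WT array. These are differences between single arrays, given by size and without a test. On bulk RNA fewer expressing cells and less RNA per cell cannot be told apart. Genotype and any difference in stimulation time cannot be told apart either, as the labels give no time for stimulated WT cells.

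**Figure D3:**
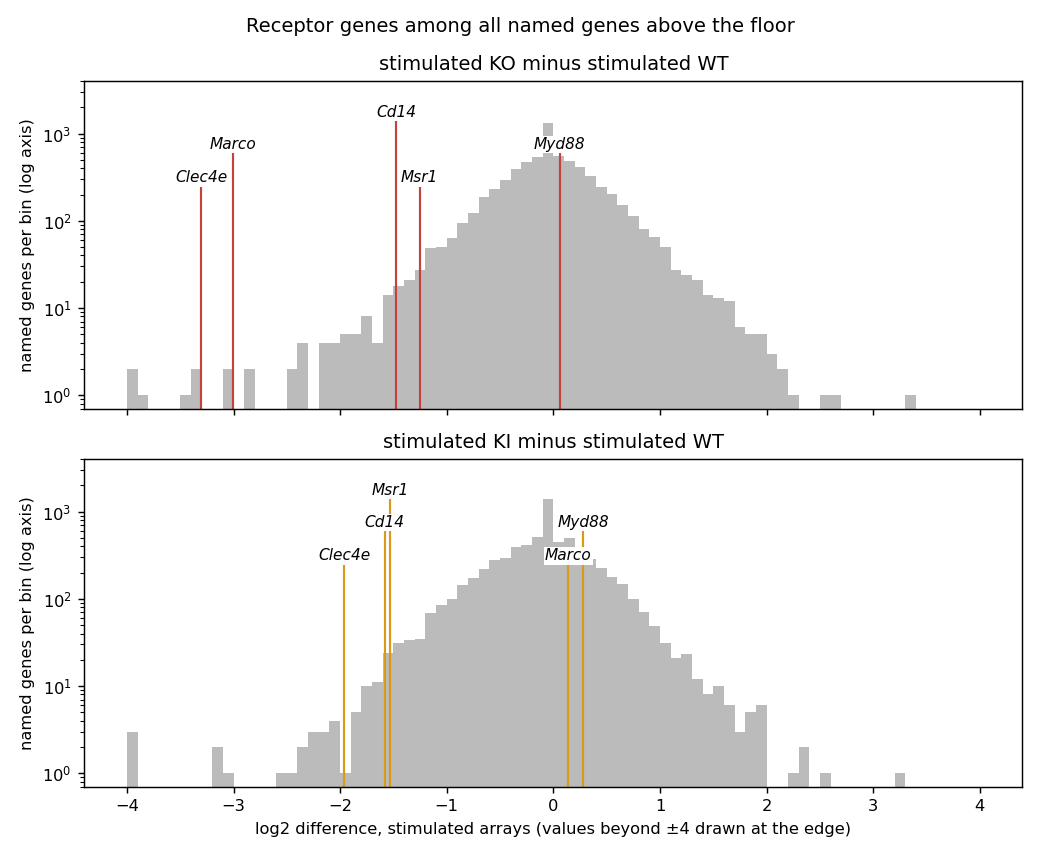
Histogram of the log2 difference between stimulated arrays over the 6767 named genes (count per bin on a log axis), for KO minus WT (top) and KI minus WT (bottom), with the 5 receptor genes marked by lines. Clec4e and Marco lie in the lower tail for KO (-3.30 and -3.01), and Marco lies near 0 for KI (0.14); both panels share the stimulated WT array.

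In untreated cells Marco and Clec4e were at least 1 log2 unit lower in KO than in WT, by bounds that the floor sets, as were 4.18% of all named genes, and the same 2 genes were lower in KI than in WT, against 10.2% of all. Cd14 and Myd88 differed from WT by less than that in both lines, and Msr1 by 0.38 in KO and -0.10 in KI on its brighter probe set. With each array centred on its median the last of these turned to 0.23.

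The levels of several other cell types' markers moved between the stimulated arrays as well. The summed signal of 9 mesothelial and fibroblast markers was 2528 in stimulated KO, 2667 in stimulated KI and 5813 in stimulated WT cells. To these sums Dcn gave 578, 794 and 2880, and Col1a2 gave 1191, 1042 and 1481. The 12 neutrophil markers summed to 2320, 2257 and 3316 in the same order, with S100a9, Ngp and Cxcr2 under the floor on every array. The 7 B cell markers summed to 2972, 2121 and 3795, and the 7 mast cell markers to 1363, 1242 and 1720. The 6 resident peritoneal macrophage markers summed to 336, 455 and 528. These last sums hold signals under the floor, of Selp on every array and of Icam2 and Alox15 on each stimulated array. The 4 monocyte markers summed to 5524, 2969 and 4601, of which Plac8 gave 3967, 2025 and 3524. Ccr2 was instead lowest in WT, at 860, 665 and 267, and Chil3 highest there, at 369.5, 120 and 640. The 8 dendritic cell markers summed to 18658, 12095 and 7133, with Zbtb46 and Ccl17 under the floor on every array, and the 8 macrophage markers to 51823, 54433 and 57687. Ccl22, which rose with stimulation by 4.34 on the log2 scale, gave the most to the dendritic cell sums, at 11071, 6199 and 3049. Flt3 was instead highest in WT, at 262, 138 and 414, and Itgax was at 1526, 3141 and 1630. Of the 6 dendritic cell markers above the floor, 4 were at least 1 log2 unit higher in stimulated KO than in WT. This held for 2.75% of all named genes. Itgam, Cd68 and Mertk of the macrophage list and Itgax of the dendritic cell list also stand on the list of other scavenger and debris receptors. The untreated arrays differed as well. In untreated KO, KI and WT cells the monocyte sum was 9201, 1267 and 7213 and the B cell sum 6378, 2231 and 7258. The dendritic cell sum was 4052, 9796 and 3637, the mesothelial and fibroblast sum 2687, 2811 and 4991, and the macrophage sum 68923, 68557 and 70471. The part of these markers in the receptor differences was not tested.

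The response to stimulation was tested with limma on the 6 arrays, blocking on genotype, so that the error measures how unevenly the genotypes responded, not the spread between animals. Marco rose by 3.09 on the log2 scale (SE 0.61, limma adjusted p = 0.0407), Clec4e by 2.12 (SE 0.45, limma adjusted p = 0.0483) and Myd88 by 0.88 (SE 0.18, limma adjusted p = 0.0462). Msr1 gave -1.10 on its brighter probe set (SE 0.35, limma adjusted p = 0.124) and -0.36 on the other (SE 0.32, limma adjusted p = 0.523). Cd14 gave -0.54 (SE 0.26, limma adjusted p = 0.255). Thus 3 of 5 genes rose and 0 fell, against 5.31% and 6.55% of the 6767 named genes, and the median change of the 5 genes was 0.88, beside -0.13 over all genes. Msr1 was lower at an unadjusted limma p under 0.05 on its brighter probe set, as were 18.5% of all named genes. All 3 calls ended without the intensity trend in eBayes, with limma adjusted p between 0.0577 and 0.0647. They also ended without both arrays of any 1 genotype, but those fits have fewer residual degrees of freedom. The loss of a call there cannot show that the rise of a gene is fragile. Without both WT, KO or KI arrays the log2 change of Marco was 2.96, 3.94 and 2.37. In the same order it was 1.63, 2.70 and 2.03 for Clec4e and 0.999, 0.957 and 0.670 for Myd88. With quantile normalization Clec4e lost its call as well (limma adjusted p = 0.0523).

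Within each genotype the change with stimulation is a difference of 2 arrays and has no test. Marco was at least 2.61-fold higher in stimulated than in untreated KO cells, at least 23.1-fold higher in KI and 10.2-fold higher in WT. Clec4e was at least 1.95-fold higher in stimulated than in untreated KO cells, 4.94-fold higher in KI and 8.52-fold higher in WT. Myd88 was 1.64-fold, 2.44-fold and 1.55-fold higher in KO, KI and WT. The change with stimulation was at least 1 log2 unit lower in KO than in WT for 4 of 5 genes, against 7.58% of all named genes: Clec4e (-2.13), Marco (-1.97), Msr1 (-1.63) and Cd14 (-1.09). Between KI and WT it was lower for 2 of 5, against 9.15% of all, Msr1 (-1.42) and Cd14 (-1.16), and higher for 1 of 5, Marco (1.18), against 6.99%. For Marco both differences rested on the floor, because its untreated KO and KI signals were under it. The KO minus WT difference of Clec4e rested on the floor as well, through its untreated KO signal. It ran from -2.91 to -1.46 over 8 alternative settings. Over 8 alternative settings the KI minus WT difference of Marco ran from 0.14 to 3.40, and it was under 1 with a floor at the 60th percentile and with quantile normalization. The KO minus WT difference of Marco ran from -3.01 to 1.05. It was -0.32 with a floor at the 20th percentile and -0.77 with log2 of the intensity plus 50. Taken from the deposited signals with no floor, the log2 change of Marco was 4.40 in KO and 3.35 in WT cells, and the KO minus WT difference turned to 1.05.

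The disagreement between genotypes was also read from the residual of the additive fit, which holds what is left after 1 common change with stimulation and 1 common shift per genotype. The residual SD of Marco was 1.12 on the log2 scale, the 10th highest of 6767 genes, and that of Clec4e was 0.76 (168th). Msr1 was at 0.63 (409th), Cd14 at 0.46 (1047th) and Myd88 at 0.25 (3129th), beside a median of 0.24 over all genes. With the floor used, the response of Marco thus varied most between genotypes among the 5. That of Myd88 varied about as much as that of the median gene. The floor replaces the untreated KO and KI signals of Marco and the untreated KO signal of Clec4e, so their residuals depend on it. Over 8 alternative settings the log2 change of Marco in KO cells ran from 0.03 to 4.40.

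Averaged over both states, no genotype difference of the 5 genes passed the limma test, and neither did any other named gene. Clec4e gave -2.24 for KO minus WT (SE 0.55, limma adjusted p = 0.432) and -1.57 for KI minus WT (SE 0.55, limma adjusted p = 0.268). Marco gave -2.02 for KO minus WT (SE 0.75, limma adjusted p = 0.483) and -0.45 for KI minus WT (SE 0.75, limma adjusted p = 0.765). Cd14 gave -0.93 for KO minus WT (SE 0.32, limma adjusted p = 0.466) and -1.005 for KI minus WT (SE 0.32, limma adjusted p = 0.244). The unadjusted p of this limma fit was under 0.05 for 3 of the 5 genes for KO against WT (Clec4e, Cd14 and Marco), 2 for KI against WT (Cd14 and Clec4e) and 0 for KI against KO. At that unadjusted level 5.1% of all named genes were lower in KO than in WT and 10.4% lower in KI than in WT. Cebpb, whose transcript is under the floor in KO, did not pass the adjusted test either (-6.19, limma adjusted p = 0.0774).

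The promoters of the 3 measured genes for which a RefSeq window was at hand are shown because the genes differ in how they behaved without NF-IL6: Clec4e and Marco low in stimulated KO cells, Myd88 near the WT signal. Each window runs from 250 bases before to 50 bases after the gene's start, 5′ to 3′ on the gene's own strand, on build GRCm38.p6. Capitals mark every match, on either strand, to 5 motifs: TTGCNNAA for C/EBP, GGG, any 2 bases and TTTCC for NF-κB, GAAA, any 2 bases and GAAA for the interferon-stimulated response element, TTCNNNGAA for the gamma-activated site and TGANTCA for AP-1. The Marco window lies at chr1:120504975-120505274, the Clec4e window at chr6:123289822-123290121 and the Myd88 window at chr9:119339969-119340268, all on the minus strand.
Clec4e: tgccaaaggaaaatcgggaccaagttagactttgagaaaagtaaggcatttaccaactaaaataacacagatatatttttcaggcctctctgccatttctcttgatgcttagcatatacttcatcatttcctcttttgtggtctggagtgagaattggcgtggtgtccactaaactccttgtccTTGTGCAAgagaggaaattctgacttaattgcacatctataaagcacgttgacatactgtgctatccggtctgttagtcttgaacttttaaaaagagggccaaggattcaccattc
Marco: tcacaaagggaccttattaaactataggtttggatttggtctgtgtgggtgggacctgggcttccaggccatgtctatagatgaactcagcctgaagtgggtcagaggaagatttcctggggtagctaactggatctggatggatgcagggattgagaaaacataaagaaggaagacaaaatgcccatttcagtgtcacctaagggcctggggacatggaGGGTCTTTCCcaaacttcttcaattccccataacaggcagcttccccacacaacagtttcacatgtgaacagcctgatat
Myd88: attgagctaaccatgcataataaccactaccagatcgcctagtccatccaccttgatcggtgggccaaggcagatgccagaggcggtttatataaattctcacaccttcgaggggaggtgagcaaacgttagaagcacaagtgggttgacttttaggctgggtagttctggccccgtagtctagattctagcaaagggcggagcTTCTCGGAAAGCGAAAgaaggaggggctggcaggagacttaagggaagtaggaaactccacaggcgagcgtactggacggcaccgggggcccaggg
The Clec4e window held 1 match, to the C/EBP motif on the opposite strand, whose first base lies at -66 from the start. The Marco window held 1 match, to the NF-κB motif at -30. The Myd88 window held a gamma-activated site match at -46 that overlaps an interferon-stimulated response element match at -40. Over 32851 windows of 300 bases, 10.8% held the C/EBP motif, 1.63% the NF-κB motif, 3.44% the interferon-stimulated response element, 8.3% the gamma-activated site and 7.81% the AP-1 motif. These matches are letters in a window and were not tested for binding.

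The genes whose pattern over the 6 arrays was most like that of Clec4e and Marco were then found, as the smallest root-mean-square difference of log2 values after each gene's mean is subtracted, among the 3351 other named genes whose highest array reached a signal of 532. For Clec4e these were Ptges, the inducible prostaglandin E synthase (0.40), Sod2, the mitochondrial superoxide dismutase (0.49), and Slc7a2, an arginine transporter (0.56). For Marco they were Il1a, which encodes interleukin 1α (0.62), Sod2 again (0.70) and Lmo4, a LIM-domain transcription regulator (0.80). Sod2 was at 1261 in stimulated KO, 2874 in stimulated KI and 5593 in stimulated WT cells. Clec4e and Marco were 0.82 apart by the same measure, and Cd14 and Msr1, at 0.36, were the closest pair among the 5 genes. The other 3 genes spanned less than 2 on the log2 scale and were not matched.

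The rest of the recognition machinery was described from lists of genes. Over all named genes, 5.31% rose and 6.55% fell with stimulation. In stimulated cells 3.32% were lower in KO than in WT by 1 or more on the log2 scale and 2.75% higher. For KI against WT these shares were 4.8% and 1.92%. Of 7 measured Toll-like receptors and co-receptors outside the set, 1 rose with stimulation and 0 fell, with a median log2 change of 0.10. This was Tlr6, the partner of TLR2 for diacylated lipoproteins, which was at 1435 and 519 in stimulated and untreated KO cells, 1410 and 520 in KI cells, and 1364 and 514 in WT cells (1.44, SE 0.14, limma adjusted p = 0.00749). Stimulated KO and KI cells lay 0.07 and 0.05 above stimulated WT cells on the log2 scale. Cd180, a Toll-like receptor homologue, and Ly86, its MD-1 partner, were higher in stimulated KI than in stimulated WT cells by 1.57 and 1.31 on the log2 scale, and by 0.91 and 0.69 in KO. No gene of this list was lower in stimulated KO or KI cells by 1 or more.

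Of 14 measured adaptors and kinases of Toll-like receptor signalling, 2 rose and 0 fell with stimulation (median 0.44). Peli1, an E3 ubiquitin ligase of the pathway, rose by 1.72 (SE 0.18, limma adjusted p = 0.00862) and Irf5, a transcription factor activated through MyD88, by 1.01 (SE 0.12, limma adjusted p = 0.0124). In stimulated KO cells 0 of the 14 were lower than WT by 1 or more and 1 was higher, Peli1 at 1552 in KO, 1323 in KI and 714 in WT cells. Ikbke, an inducible kinase of interferon regulatory factors, was at 915 in stimulated KO, 1398 in stimulated KI and 1501 in stimulated WT cells.

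Of 9 measured feedback inhibitors of the pathway, 6 rose and 0 fell, with a median of 1.65. Socs1 rose by 4.29, Tnfaip3, which encodes the deubiquitinase A20, by 2.70, and Nfkbia and Nfkbie, inhibitors of NF-κB, by 2.46 and 1.87, with limma adjusted p from 0.001 to 0.021. Nfkbia was at 8724 in stimulated KO, 8439 in stimulated KI and 8632 in stimulated WT cells, and Socs1 at 6518, 6178 and 6402. On the log2 scale these stimulated signals differed from WT by between -0.05 (Socs1 in KI) and 0.03 (Socs1 in KO). Dusp1, a phosphatase of MAP kinases, was at 6369 in stimulated KO and 5109 in stimulated KI cells, against 2795 in stimulated WT cells.

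Of 7 measured C-type lectin receptors outside the set, 3 fell and 1 rose (median -1.03). Clec4d, whose product forms a complex with Mincle and whose gene adjoins Clec4e on chromosome 6 with no protein-coding gene between them, fell by 1.19 (SE 0.13, limma adjusted p = 0.0102). It was at 1613 in stimulated and 4063 in untreated KO cells, 1614 and 3946 in KI cells, and 3835 and 7395 in WT cells. Clec4d was thus lower in stimulated KO and KI cells than in stimulated WT cells by 1.25 on the log2 scale, while its change with stimulation ran opposite to that of Clec4e in every genotype. Clec4a2, further along the same cluster, was at 354 in stimulated KO, 113 in stimulated KI and 80.2 in stimulated WT cells, the last of these under the floor. Mrc1, the mannose receptor, fell by 2.58 (SE 0.37, limma adjusted p = 0.0184) and was under the floor on all 3 stimulated arrays. Ly75, the lectin DEC-205, rose by 2.41 (SE 0.36, limma adjusted p = 0.0212). In stimulated KO cells 2 of the 7 were lower than WT by 1 or more, Clec4d and Cd302, and 1 was higher, Clec4a2. Cd302, a lectin-domain receptor, was at 136 in stimulated KO and 399.8 in stimulated KI cells, against 724 in stimulated WT cells, a KO minus WT difference of -2.41 on the log2 scale.

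Of 9 measured genes of C-type lectin signalling, 2 rose, Ptpn6, a phosphatase, by 1.45 and Vav1 by 1.27, and 1 fell, the adaptor Tyrobp (-0.91), with limma adjusted p from 0.0103 to 0.013. Fcer1g, the γ chain that carries the Mincle signal, was at 1585 in stimulated KO, 1625 in stimulated KI and 1423 in stimulated WT cells, and Syk at 4234, 4881 and 4189. Fgr, a Src-family kinase, was the 1 gene of the list lower in stimulated KO by this size, at 613 in KO, with 1064 in KI, against 1719 in WT. Of 13 other scavenger and debris receptors, 0 rose and 3 fell (median -0.69): Cd36, the fatty acid and lipoprotein receptor (-1.75), Cd5l (-1.46) and Cd68 (-0.64), with limma adjusted p from 0.0117 to 0.0357. In stimulated KO cells 0 of these 13 were lower than WT by 1 or more, against 3.32% of all named genes. In stimulated KI cells 3 were lower, against 4.8%, and 1 was higher, against 1.92%. The change with stimulation was lower in KO than in WT by 1 or more for 6 of these 13, against the 7.58% of all named genes given above, and higher for 0. Among them were Stab1 (-1.91), Itgam (-1.71) and Mertk (-1.46), and Stab1 was at 248.5 in stimulated and 1448 in untreated KO cells, against 273 and 424 in WT cells. Both measured cytosolic sensors rose, Ifih1, the RNA sensor MDA5, by 3.81 and Casp4, the inflammatory caspase that binds LPS, by 2.46 (limma adjusted p of 0.000783 and 0.00777).

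**Figure D4:**
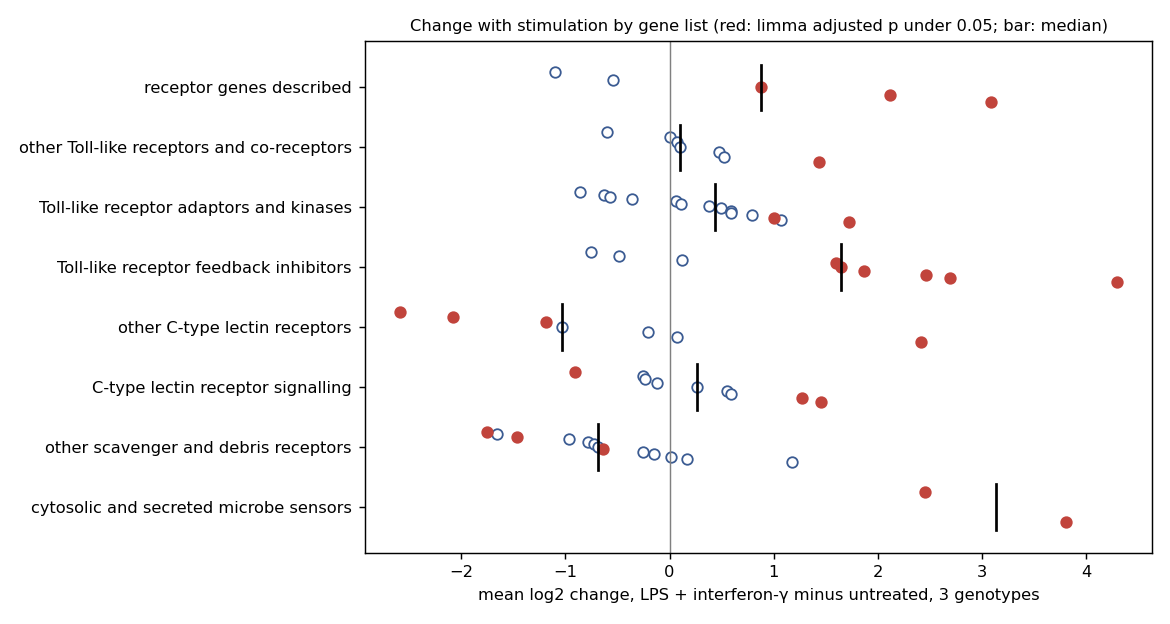
Mean log2 change with stimulation over the 3 genotypes for each measured gene of the receptor set and of 7 pathway lists, 1 point per gene, with genes past the limma test in red and the median as a bar. The 9 feedback inhibitors lie mostly to the right (median 1.65) and the other C-type lectin and scavenger receptors mostly to the left (medians -1.03 and -0.69).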

How the data were processed

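RNA of peritoneal exudate cells was extracted with Trizol and labelled as biotin cRNA from 6 µg of total RNA, per the labels' protocols. The deposited table holds linear MAS5 signal intensities, 0.1 to 39853, of 12488 probe sets, per the submitters' processing notes. No source used here gives the MAS5 version, its scaling target or detection calls. Trimmed means (2% off each end) lay between 500.3 and 500.4 on all 6 arrays.

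Intensities were rescaled to equal trimmed means, raised to the 40th percentile (98.0) where lower, and converted to log2. Where 1 of both signals lay under this floor, the fold is a bound. After removal of 66 control probe sets, 12422 remained, and the 9344 that passed the floor on 1 array or more were tested. Of these 12422, 10833 have 1 symbol in the platform annotation, 396 several and 1193 none. Each of 6767 named genes is read by its brightest probe set on average. Stimulation and genotype effects were fitted in 1 additive model (limma 3.58.1, R 4.3.3, eBayes with an intensity trend, 2 residual degrees of freedom), adjusted by Benjamini-Hochberg over all 9344 and called at 0.05. Other differences are between single arrays, called at 1 on the log2 scale with no p-value. Genes of the pathway lists were named by the largest change among those past the test or the largest KO minus WT difference in change (up to 4 each); Fcer1g and some cell type markers are named outside this rule, for their roles, after their values were seen. The members, lists and tests were chosen with earlier results of these data known. The code was tested on simulated data.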

Additional observations from a re-analysis of the deposited data

Results flagged for a closer look

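In Cd14 and on the dimmer Msr1 probe set, genotypes moved in opposite directions with stimulation. Each change is from 1 array per state, and the difference was not tested. How many of all named genes did so was not counted. The WT change of Cd14, 0.20, was smaller than its residual SD of 0.46. Cd14 was lower in stimulated than in untreated cells of KO (-0.89 on the log2 scale) and KI (-0.95) and higher in WT (0.20), which made differences in change of -1.09 for KO minus WT and -1.16 for KI minus WT. The dimmer Msr1 probe set, 94140_at, gave -1.06 in KO and -0.45 in KI against 0.44 in WT, which made differences of -1.50 and -0.90. The brighter Msr1 probe set was at -0.08 in WT and so did not move the opposite way.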

How the results depend on the processing

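The labels number no replicates, so no fit could block on a replicate number, and the stimulation test itself pairs both states within each genotype. Of the counts that lead the results, 127 of 145 recomputed values stayed within 1.5 times the main count. For counts this small that margin is wide, as a fall from 4 to 3 or from 3 to 2 lies within it. Some settings could not change some counts: leaving out the filter on low values does not touch differences between single arrays. The number of receptor genes that rose with stimulation, 3, was 1 with a floor at the 60th percentile (Myd88). It was 2 with quantile normalization (Marco and Myd88), 0 with no filter on low values and 0 without the intensity trend. Without both WT, both KO or both KI arrays it was also 0, in fits with fewer residual degrees of freedom. For that reason these losses cannot show that the 3 rises depend on any 1 genotype. Leaving out a single array is no separate check, because the other array of its genotype then tells nothing of stimulation. The 145 recomputed values include such fits. The number that fell, 0, was 1 (Msr1) with log2 of the intensity plus 50 and 1 with no floor, a setting chosen after seeing the data. The number with a lower change in KO than in WT, 4, was 3 with a floor at the 20th percentile and with log2 of the intensity plus 50, as Marco dropped out. With no floor, Marco's difference in change between KO and WT turned to 1.05, so that 1 gene was higher by at least 1. The number of genes with a higher change in KI than in WT, 1, was 0 with a floor at the 60th percentile and 0 with quantile normalization. The number with a lower change in KI than in WT, 2, was 1 with the other probe set of Msr1, and 3, Clec4e added, with a floor at the 60th percentile and with quantile normalization. The stimulated KO minus WT difference ran over 8 settings from -3.30 to -2.91 for Clec4e, from -3.01 to -2.78 for Marco and from -1.49 to -1.36 for Cd14. Several settings could not move these values: the filter on low values and the other probe set of Msr1 leave them as they are. For Marco and Cd14 the floors at the 20th and 60th percentile did so too. For Msr1 the stimulated KO minus WT difference ran from -1.25 to -0.91, and its KI minus WT difference from -1.53 to -0.40. The last value in each case is from its other probe set, with which Msr1 left both counts of genes lower than WT by 1 or more. Centring each array on its median shifted KI against WT by 0.33 in untreated and 0.33 in stimulated cells, and put the stimulated KI minus WT difference of Cd14 at -1.26. Signals under the floor limit what can be read of Marco and Clec4e in untreated KO and KI cells. The untreated differences of both genes from WT were under 1 in size with median centring, quantile normalization and a floor at the 60th percentile. That of Clec4e in KI was also under 1 with log2 of the intensity plus 50.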
